A study of Mus musculus with 12 samples.

Results

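The messages examined here are those of the factors that start and extend protein chains on the cytosolic ribosome. The rule took every protein-coding gene whose symbol in GENCODE M21 begins with Eif1 to Eif6 or with Eef1, or is Eef2, and left out the eIF2 kinases (Eif2ak), the eIF4E-binding proteins (Eif4ebp) and the eEF2 kinase (Eef2k). It found 58 of the 49315 genes in the count tables by their names. The rule uses no measured value, but the members were chosen with earlier results of these data known. The cells were mouse embryonic fibroblasts (MEFs), connective tissue cells grown from embryos. They were treated for 24 h with one of 3 inhibitors of mTOR, the kinase that couples nutrient and growth signals to protein synthesis, or with the solvent DMSO. Rapamycin at 20 ng/ml, a macrolide that binds the protein FKBP12 and through it mTOR complex 1, made up the first group. Torin1 at 250 nM, which competes with ATP at the mTOR kinase, made up the second, and RapaLink-1 at 10 nM, which tethers a kinase-site mTOR inhibitor to rapamycin, the last of the treated groups. DMSO alone served as the control. Each group held 3 libraries, 12 in all, and no source used here gives the genotype, strain or passage of the cells. Whether replicate libraries derive from different cultures is not in the labels, and the spread behind each p-value may therefore be technical. The compounds were given at different doses, and their comparisons hold for those doses.

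Total counts were 30075870 to 39423703 per library. Mitochondrial genes took 1.29% to 1.32% of counts with rapamycin, 1.36% to 1.39% with Torin1, 1.2% to 1.21% with RapaLink-1 and 1.08% to 1.11% with DMSO, and the part of this in the results was not tested. All 10 fibroblast markers were tested, and their summed level was 19860 to 20230 CPM (counts scaled to library size) with rapamycin, 20960 to 21630 CPM with Torin1, 18710 to 19030 CPM with RapaLink-1 and 21140 to 21540 CPM with DMSO. Among these fibroblast genes Col3a1 fell (log2 -0.31, -1.28 and -1.28 against DMSO with rapamycin, Torin1 and RapaLink-1) and Dcn rose (0.63, 1.51 and 1.07). The leukocyte gene Cd3e and the muscle regulators Myod1 and Myog had no count in any library. Summed epithelial markers (5 genes) were at 9.55 to 11.2 CPM with rapamycin, 13.9 to 15.4 with Torin1, 21.7 to 22.3 with RapaLink-1 and 14.4 to 15.3 with DMSO. Nearly all of this sum came from the keratin gene Krt19. Muscle markers (4 genes) summed to 1.69 to 2.09 CPM with rapamycin, 3.6 to 3.96 with Torin1, 1.65 to 2.06 with RapaLink-1 and 1.04 to 1.6 with DMSO. Endothelial markers (4 genes) summed to 1.12 to 1.51 CPM with rapamycin, 2.24 to 2.38 with Torin1, 2.45 to 2.77 with RapaLink-1 and 0.788 to 1.48 with DMSO, and the leukocyte list stayed between 1.79 and 3.04 CPM. Most of the endothelial sum came from Kdr. The neural sum (4 genes), nearly all from the tubulin gene Tubb3, was 10.7 to 11.6 CPM with rapamycin, 2.87 to 4.15 CPM with Torin1 or RapaLink-1 and 13.5 to 17.9 CPM with DMSO, and the part of these lists in the results below was not tested. In whole cultures, fewer cells of a type and less RNA per cell cannot be told apart.

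As background, initiation begins when eIF4F, made of the cap-binding protein eIF4E, the scaffold eIF4G and the helicase eIF4A, binds the capped end of a message. A small ribosomal subunit carrying eIF3, eIF1, eIF1A, eIF5 and the initiator tRNA bound to eIF2 then scans to the start codon, after which eIF5B joins the large subunit and eIF2B recharges eIF2 with GTP. In elongation eEF1A delivers aminoacyl-tRNAs, eEF1B recharges eEF1A, eEF2 moves the ribosome along and eIF5A relieves stalls. Several of these factors, elongation factors above all, are made from TOP messages, which start with a run of pyrimidines and whose translation depends on mTOR complex 1 through the RNA-binding protein LARP1.

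Most initiation factor messages were lower with each compound than with DMSO, while the most abundant elongation factor messages were higher. Against DMSO, 8 members rose and 42 fell with rapamycin, 15 rose and 39 fell with Torin1, and 16 rose and 36 fell with RapaLink-1. A call was an adjusted p below 0.05 in edgeR's quasi-likelihood test over 15917 genes, and 56 of the 58 members had enough counts to be tested. Calls were common in all of these comparisons. With rapamycin 27.5% of all genes tested were called higher and 32.2% lower, with Torin1 39.8% and 38.3%, and with RapaLink-1 38.7% and 37.9%. Under upper-quartile scaling 5481 genes were called higher and 4061 lower with rapamycin (4381 and 5127 with TMM scaling), 7640 and 4999 with Torin1 (6332 and 6090 with TMM scaling), and 7629 and 4823 with RapaLink-1 (6165 and 6036 with TMM scaling). The median log2 fold change of the members was -0.30 with rapamycin, -0.30 with Torin1 and -0.29 with RapaLink-1. Under upper-quartile scaling these medians were -0.23, -0.17 and -0.15, and 10 members rose and 39 fell with rapamycin, 18 and 30 with Torin1, and 18 and 31 with RapaLink-1. Over all genes tested the medians were 0.0043, 0.0385 and 0.026 in the same order. The 3 comparisons share their DMSO libraries, so their values are set side by side and not counted as independent. Libraries of the 2 groups did not overlap for 50 members with rapamycin, 53 with Torin1 and 52 with RapaLink-1, where the share over all genes tested was 63%, 78.5% and 77.6%.

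**Figure D1:**
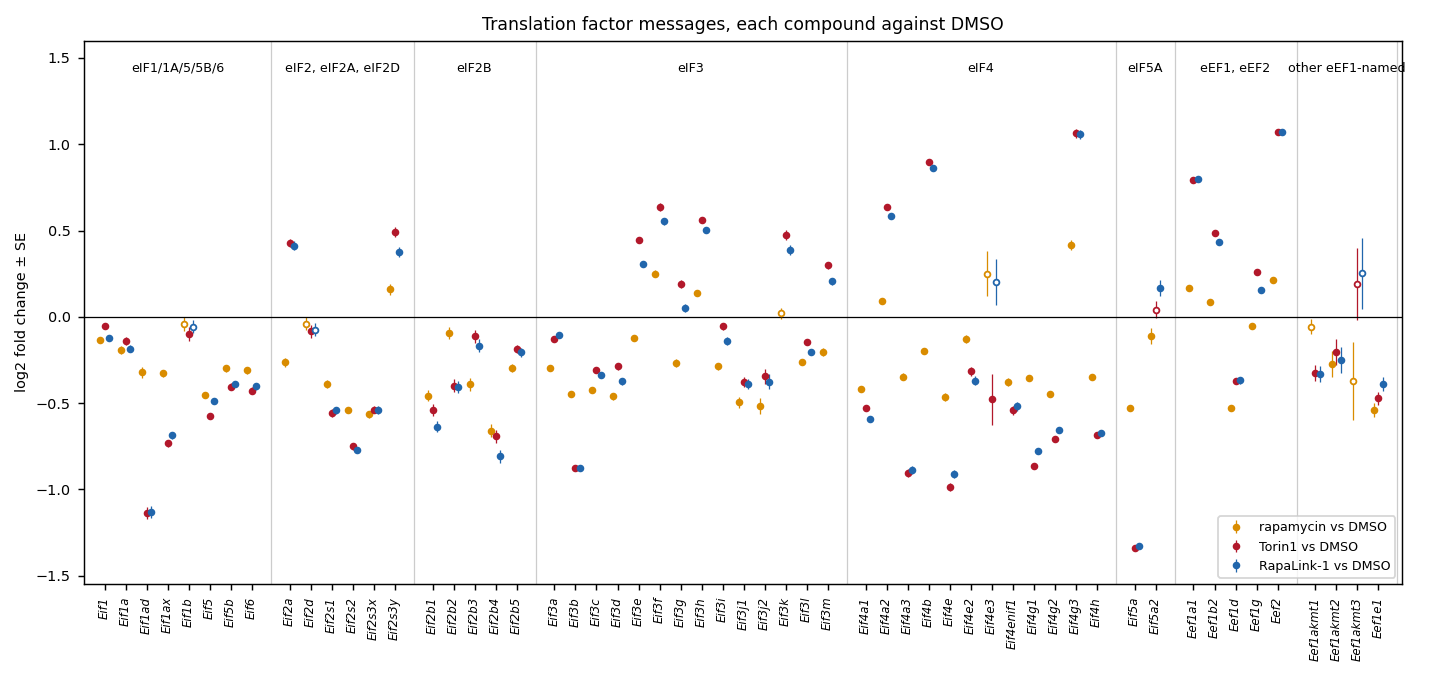
Log2 fold change against DMSO (vertical axis, ± standard error) of the 56 tested members, grouped by complex, with rapamycin, Torin1 and RapaLink-1 as 3 colours and open symbols for values not called. Eef2 and Eif4g3 stand highest at 1.06 to 1.07 with Torin1 and RapaLink-1, Eif5a lowest at -1.34 and -1.33, and the rapamycin values mostly lie nearer to 0.

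Of the members, 4 changed by at least 2-fold with Torin1, and the same number did with RapaLink-1. With either compound they were Eef2 and Eif4g3, which were higher, and Eif5a and Eif1ad, which were lower. No member changed by that much with rapamycin. The widest rapamycin values were 0.42 ± 0.03 for Eif4g3 and -0.66 ± 0.04 for Eif2b4, on the log2 scale with the standard error.

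The elongation factor messages Eef1a1 and Eef2 were the most abundant of the members. Per length, as TPM (counts over exonic length, as a part of the library's sum), Eef1a1 averaged 14310 ± 93.3 TPM with rapamycin, 20990 ± 109 with Torin1, 21860 ± 200 with RapaLink-1 and 12120 ± 32.9 with DMSO (SD, n = 3 each). Eef1a1 encodes the eEF1A of most tissues. Its libraries held 10890, 10760 and 10680 CPM with rapamycin, 16690, 16700 and 16410 CPM with Torin1, 16490, 16800 and 16630 CPM with RapaLink-1, and 9612, 9518 and 9619 CPM with DMSO. Every treated library was above every DMSO library, and the Torin1 and RapaLink-1 libraries overlapped. The log2 fold changes were 0.17 ± 0.01, 0.79 ± 0.01 and 0.80 ± 0.01 (edgeR adjusted p = 1.29e-28, 2.28e-116 and 1.56e-116). The muscle and neuron isoform Eef1a2 was nearly silent, with 2, 3 and 1 counts with rapamycin, 0, 1 and 1 with Torin1, 2, 1 and 2 with RapaLink-1, and 4, 8 and 5 with DMSO, and was not tested.

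Eef2, the translocase, had 4413, 4326 and 4391 CPM with rapamycin, 7958, 7806 and 7946 CPM with Torin1, 7899, 7984 and 7839 CPM with RapaLink-1, and 3746, 3723 and 3837 CPM with DMSO. The groups of treated libraries did not overlap DMSO, and the log2 fold changes were 0.22, 1.07 and 1.07, each ± 0.01. Within each library the Eef1a1 to Eef2 ratio of TPM, which no scaling can move, was 3.02 to 3.09 with rapamycin, 2.57 to 2.66 with Torin1, 2.59 to 2.64 with RapaLink-1 and 3.12 to 3.19 with DMSO. Eef2 thus rose by a larger factor than Eef1a1 in all treated groups.

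The eEF1B exchange complex did not move as one. Its catalytic subunit message Eef1b2 was at 519 to 530 CPM with rapamycin, 678 to 708 with Torin1, 659 to 670 with RapaLink-1 and 490 to 494 with DMSO, and rose in all 3 comparisons (log2 0.09, 0.49 and 0.43, each ± 0.02). Eef1g, the structural subunit, rose with Torin1 (0.26 ± 0.01) and RapaLink-1 (0.15 ± 0.01), and its rapamycin value of -0.05 ± 0.01, called lower, was 0.01 and no longer called under upper-quartile scaling. Eef1d, a second exchange subunit, fell in all 3. It had 227, 219 and 220 CPM with rapamycin, 249, 250 and 244 CPM with Torin1, 250, 252 and 243 CPM with RapaLink-1, and 319, 324 and 319 CPM with DMSO. Its log2 fold changes were -0.53, -0.37 and -0.37, each ± 0.02. Of the 5 elongation genes tested, 3 rose and 2 fell with rapamycin (3 and 1 under upper-quartile scaling), and 4 rose and 1 fell with Torin1 and with RapaLink-1.

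**Figure D2:**
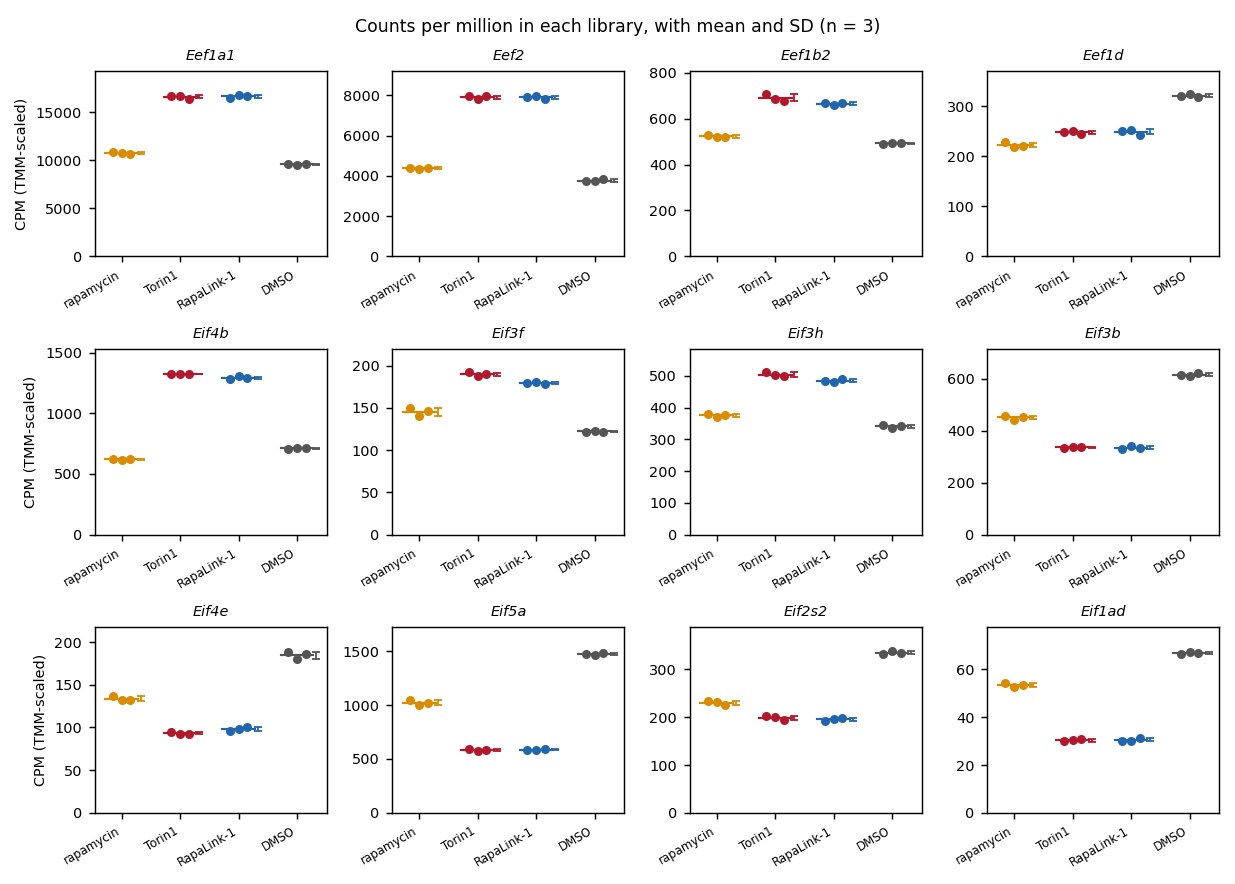
CPM (vertical axis, from 0) of 12 members in each of the 12 libraries, as points by treatment, with the mean as a line and the SD as a bar (n = 3). Eef1a1, Eef2 and Eef1b2 are above DMSO in every treated library, Eif4b is above it with Torin1 and RapaLink-1 and below it with rapamycin, and Eif3b, Eif4e, Eif5a, Eif2s2 and Eif1ad are below it in every treated library.

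Together the 6 elongation genes took 1.73% to 1.75% of all counts with rapamycin, 2.64% to 2.67% with Torin1, 2.70% to 2.74% with RapaLink-1 and 1.47% to 1.48% with DMSO. The 46 initiation genes took 1.09% to 1.10% with rapamycin, 1.12% to 1.13% with Torin1, 1.13% to 1.14% with RapaLink-1 and 1.27% to 1.28% with DMSO. For either sum no treated library overlapped a DMSO library, and the sums moved in opposite directions. Eef1a1 and Eef2 made up most of the elongation sum. The other 4 elongation genes took 0.1838% to 0.187% with rapamycin, 0.22% to 0.2271% with Torin1, 0.2171% to 0.2179% with RapaLink-1 and 0.1844% to 0.1854% with DMSO, so without that pair the rapamycin libraries overlapped DMSO and the others stayed above it. An exact permutation test of 3 libraries against 3 cannot give a p below 0.1, so none is given.

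**Figure D3:**
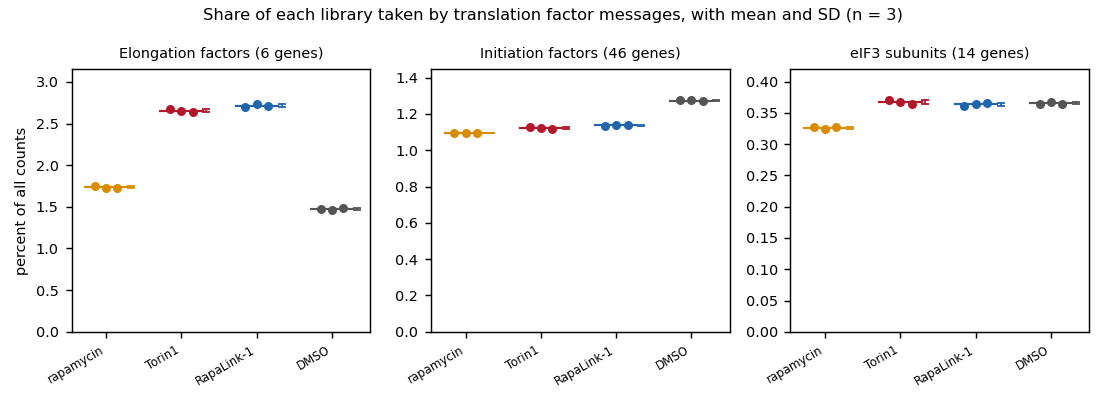
Percent of all counts (vertical axis, from 0) in elongation genes, initiation genes and eIF3 genes, in each library by treatment, with mean and SD (n = 3). The elongation share is highest with Torin1 and RapaLink-1 (2.64% to 2.74%), while the initiation share is highest with DMSO (1.27% to 1.28%).

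A list of TOP messages taken from textbook knowledge held 9 of the members: Eef1a1, Eef1b2, Eef1d, Eef1g, Eef2, Eif3e, Eif3f, Eif3h and Eif4b. Of these 9, 5 rose and 4 fell with rapamycin, 8 rose and 1 fell with Torin1, and 8 rose and 1 fell with RapaLink-1, with medians of 0.09, 0.56 and 0.51. Among the other 47 tested members 3 rose and 38 fell with rapamycin, 7 rose and 38 fell with Torin1, and 8 rose and 35 fell with RapaLink-1, with medians of -0.32, -0.35 and -0.37. Eef1d was the TOP-listed message that fell in every comparison with DMSO. The list was drawn up with results of these data known, so these counts describe it and do not test it.

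The letters at the starts show what a pyrimidine run looks like in these genes. The following 30-base stretches come from RefSeq (GRCm38.p6), written 5′ to 3′ with the longest run of C and T in capitals.
Eef1a1, chr9:78481705-78481734, minus strand: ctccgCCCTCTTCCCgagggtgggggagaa
Eef2, chr10:81176631-81176660, plus strand: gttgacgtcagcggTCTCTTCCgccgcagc
Eif3f, chr7:108934405-108934434, plus strand: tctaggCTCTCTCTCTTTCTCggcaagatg
Eif2s3x, chrX:94212632-94212661, minus strand: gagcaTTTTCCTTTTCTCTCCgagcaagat
Eif2s3y, chrY:1010585-1010614, plus strand: ggccacagccaCTTCCTTCTTTCgtgagca
All but Eef2 run from 10 bases before to 20 bases from the listed start on, and the Eef2 stretch runs from its start on. The first 3 are TOP-listed messages, and the last pair encode the X and Y copies of an eIF2 subunit. The runs are 10, 8, 15, 16 and 12 letters long, in the order printed. Eif2s3x, with the longest, fell against DMSO with each compound, while Eef1a1, Eef2, Eif3f and Eif2s3y rose. Of 44 members with a RefSeq promoter entry, 9 (20.5%) had an unbroken run of at least 8 C or T in the stretch from 10 bases before to 20 after the start, against 13.0% of 27025 genes. Those 27025 are all genes with an entry, also ones with too few counts to be tested, and any matching entry of a gene counts. The 9 members were Eef1a1, Eif2b2, Eif2b5, Eif2s3x, Eif2s3y, Eif3f, Eif3l, Eif4e and Eif4enif1. Eef2 was not among them, because its printed run begins at base 15 and is cut by the end of that stretch. The TOP-listed Eef1b2 and Eif4b had an entry but no such run, so the search misses some TOP-listed messages. Such a run stood in 3 of 7 members that rose with rapamycin and in 6 of 33 that fell. The counts were 3 of 12 and 6 of 30 with Torin1, and 3 of 13 and 6 of 28 with RapaLink-1. Such a match describes letters near a listed start, which may lie away from the start used in these cells.

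The cap-binding complex mostly fell, with a few members going the other way. Of 12 tested genes of eIF4F, its cofactors and its relatives, 2 rose and 9 fell with rapamycin, 3 rose and 9 fell with Torin1, and 3 rose and 8 fell with RapaLink-1. Eif4e, which encodes the cap-binding protein, had 137, 132 and 133 CPM with rapamycin, 94.4, 92.4 and 92.4 CPM with Torin1, 96.2, 97.7 and 101 CPM with RapaLink-1, and 188, 180 and 186 CPM with DMSO. The log2 fold changes were -0.46, -0.99 and -0.91, each ± 0.02, and no treated library reached the lowest DMSO library. Eif4e2, a cap-binding relative known for repressing translation, fell by 0.13 ± 0.03, 0.32 ± 0.03 and 0.37 ± 0.03. Eif4e2 had 91.1, 91.5 and 92.5 CPM with rapamycin, 79.8, 81.4 and 80.4 CPM with Torin1, 77.0, 78.7 and 76.9 CPM with RapaLink-1, and 101, 97.5 and 102 CPM with DMSO. Eif4e3, another relative, was low, with 3.74, 3.55 and 2.62 CPM with rapamycin, 2.19, 1.96 and 1.81 CPM with Torin1, 3.4, 2.82 and 3.31 CPM with RapaLink-1, and 2.92, 2.77 and 2.57 CPM with DMSO. It was called only with Torin1 (-0.48 ± 0.15, edgeR adjusted p = 0.00212). With rapamycin it was called higher without the third rapamycin library (0.40), and under upper-quartile scaling it was called higher with rapamycin (0.31) and RapaLink-1 (0.34). The germline form Eif4e1b had no count in any library.

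The scaffold paralogs moved apart. Eif4g1, the main scaffold, had 1199, 1214 and 1227 CPM with rapamycin, 850, 842 and 866 CPM with Torin1, 897, 918 and 902 CPM with RapaLink-1, and 1539, 1543 and 1569 CPM with DMSO. Its much rarer paralog Eif4g3 had 69.1, 70.6 and 70.0 CPM with rapamycin, 105, 109 and 113 CPM with Torin1, 109, 110.1 and 108 CPM with RapaLink-1, and 51.2, 52.8 and 53.2 CPM with DMSO. Eif4g1 fell in each comparison (log2 -0.35, -0.86 and -0.78, each ± 0.01) and Eif4g3 rose in each (0.42, 1.06 and 1.06, each ± 0.03), with no overlap between treated and DMSO libraries. The TPM of Eif4g1 over that of Eif4g3 was 26.3 to 26.8 with rapamycin, 11.7 to 12.4 with Torin1, 12.7 to 12.8 with RapaLink-1 and 44.74 to 46.04 with DMSO, so Eif4g1 remained the more abundant in every library. Eif4g2 (DAP5), a scaffold that lacks the eIF4E-binding site, also fell in each comparison, with 886, 878 and 891 CPM with rapamycin, 741, 739 and 735 CPM with Torin1, 763, 759 and 769 CPM with RapaLink-1, and 1201, 1210.0 and 1203 CPM with DMSO.

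The helicase paralogs did the same. Eif4a1, the main eIF4A, had 987, 973 and 977 CPM with rapamycin, 914, 912 and 892 CPM with Torin1, 873, 862 and 869 CPM with RapaLink-1, and 1310.0, 1310.0 and 1308 CPM with DMSO, a fall of 0.42, 0.53 and 0.59 (each ± 0.01) on the log2 scale. Eif4a2 had 451, 457 and 462 CPM with rapamycin, 668, 670.5 and 662 CPM with Torin1, 652, 631 and 642 CPM with RapaLink-1, and 434, 428 and 423 CPM with DMSO, a rise of 0.09, 0.64 and 0.58 (each ± 0.02). The TPM ratio of Eif4a1 to Eif4a2 was 2.61 to 2.69 with rapamycin, 1.66 to 1.69 with Torin1, 1.65 to 1.68 with RapaLink-1 and 3.72 to 3.81 with DMSO. Eif4a3, a relative that belongs to the exon junction complex and not to eIF4F, fell by 0.35 ± 0.02, 0.91 ± 0.02 and 0.89 ± 0.02. It had 146, 142 and 149 CPM with rapamycin, 99.1, 100.1 and 97.7 CPM with Torin1, 102, 99.7 and 99.6 CPM with RapaLink-1, and 186, 182 and 188 CPM with DMSO.

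Eif4b, a cofactor of the helicase, was the member for which rapamycin and the other compounds differed in direction by the widest margin. It had 624, 615 and 620 CPM with rapamycin, 1323, 1326 and 1325 CPM with Torin1, 1280, 1304 and 1291 CPM with RapaLink-1, and 709, 711 and 716 CPM with DMSO. Rapamycin libraries lay below DMSO (log2 -0.20 ± 0.01) and the Torin1 and RapaLink-1 libraries above it (0.90 ± 0.01 and 0.86 ± 0.01). Torin1 exceeded rapamycin by 1.10 ± 0.01 and RapaLink-1 exceeded it by 1.06 ± 0.01 in direct tests (edgeR adjusted p = 1.96e-124 and 6.74e-122). The related cofactor Eif4h fell with every compound, by 0.35, 0.68 and 0.68, each ± 0.02, and so did Eif4enif1 (4E-T), which carries eIF4E into the nucleus, by 0.38, 0.54 and 0.52, each ± 0.03.

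**Figure D4:**
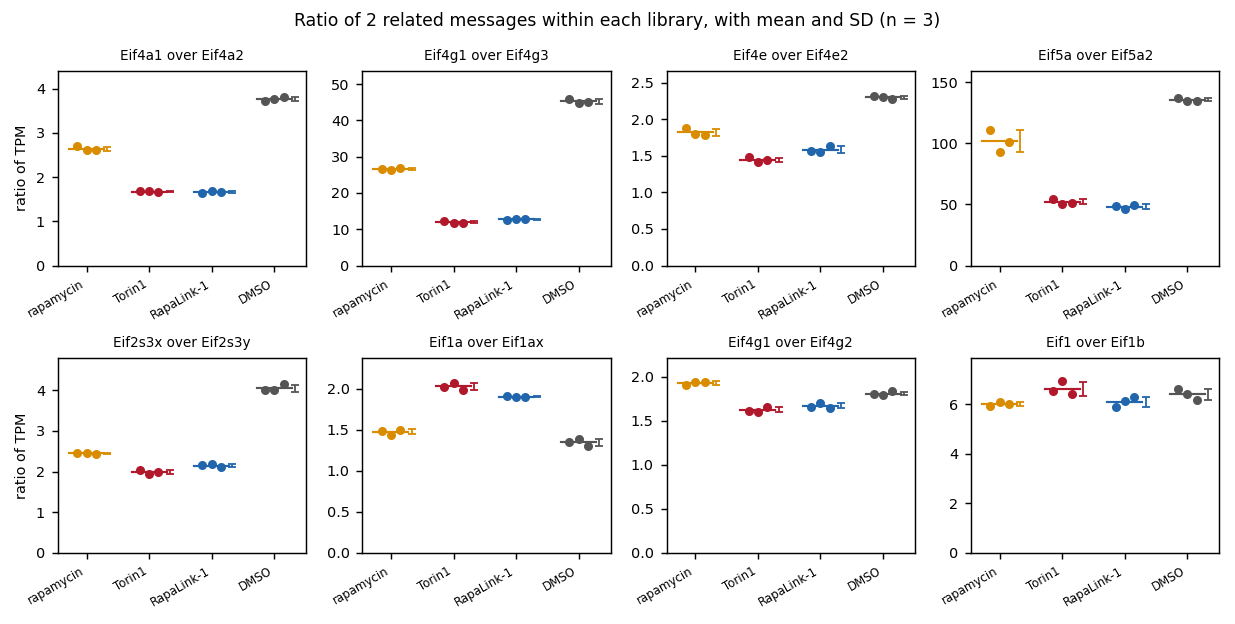
Ratio of the TPM of 2 related members within each library (vertical axis, from 0), as points by treatment with mean and SD (n = 3). The Eif4a1 to Eif4a2, Eif4g1 to Eif4g3, Eif4e to Eif4e2, Eif5a to Eif5a2 and Eif2s3x to Eif2s3y ratios are lower in every treated library than in every DMSO library, the Eif1a to Eif1ax ratio is higher, the Eif4g1 to Eif4g2 ratio is higher with rapamycin and lower with Torin1 and RapaLink-1, and the Eif1 to Eif1b ratio overlaps with DMSO in the Torin1 and RapaLink-1 groups.

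The upstream sequences of 3 cap-complex genes are shown because the E-box CACGTG, the site bound by MYC and by the TFEB family, was counted in the promoter entries. These are the 100 bases before a RefSeq start (GRCm38.p6), with CACGTG in capitals.
Eif4e, chr3:138527168-138527267, plus strand: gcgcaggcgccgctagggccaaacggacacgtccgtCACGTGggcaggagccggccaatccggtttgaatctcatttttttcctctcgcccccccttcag
Eif4g1, chr16:20672627-20672726, plus strand: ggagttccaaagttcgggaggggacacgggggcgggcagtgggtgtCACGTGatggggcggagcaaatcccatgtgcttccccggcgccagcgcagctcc
Eif4g3, chr4:137993355-137993454, plus strand: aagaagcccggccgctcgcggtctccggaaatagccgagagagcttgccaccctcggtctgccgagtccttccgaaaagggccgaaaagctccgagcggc
Eif4e and Eif4g1, which fell, hold the 6 letters here, and Eif4g3, which rose, has them in neither of its RefSeq entries. Over the windows from 250 bases before to 50 after each start, CACGTG (which reads the same on both strands) stood in 11 of 44 members (25.0%) and in 8.09% of 27025 genes. Those 27025 include genes not tested here, and a gene with several entries counts if any of them matches, so the shares are not matched. The 11 were Eef2, Eif1b, Eif3a, Eif3f, Eif3k, Eif4a1, Eif4e, Eif4g1, Eif4h, Eif5a and Eif5a2. The letters were found in members of either direction. With Torin1 3 of 12 members that rose (25.0%) and 7 of 30 that fell (23.3%) had them, with rapamycin 2 of 7 and 7 of 33, and with RapaLink-1 4 of 13 and 6 of 28. The motif TGATGNAA, a core of the sites bound by ATF4 and its partners, was found on either strand in 1 of 44 members (2.27%) and in 4.51% of all genes. These are counts of letters and do not show binding.

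Eif5a had the largest fall among the members with Torin1 and with RapaLink-1. It encodes eIF5A, which carries the modified lysine hypusine, and was, after Eef1a1 and Eef2, the most abundant member in DMSO cells at 1956 TPM. Eif5a had 1047, 1003 and 1015 CPM with rapamycin, 594, 577 and 579 CPM with Torin1, 583, 586 and 594 CPM with RapaLink-1, and 1474, 1461 and 1487 CPM with DMSO. The groups of treated libraries stood clear of DMSO, and the Torin1 and RapaLink-1 libraries overlapped in CPM. The log2 fold changes were -0.53 ± 0.01, -1.34 ± 0.02 and -1.33 ± 0.02 (edgeR adjusted p = 1.23e-76, 6.54e-136 and 2.97e-135). The rare isoform Eif5a2 had 20.0, 22.8 and 21.3 CPM with rapamycin, 23.1, 24.1 and 23.8 CPM with Torin1, 25.1, 26.9 and 25.3 CPM with RapaLink-1, and 22.7, 22.9 and 23.3 CPM with DMSO. It rose with RapaLink-1 (0.17 ± 0.05) and was not called with Torin1 (0.04 ± 0.05), though upper-quartile scaling called it higher there. With rapamycin it was just called lower (-0.11 ± 0.05). That call was lost without the first (-0.07) or the third (-0.11) rapamycin library, and without the first (-0.12), second (-0.11) or the third (-0.10) DMSO library. It was also lost under upper-quartile scaling (-0.05), in DESeq2's Wald test (-0.12), with a minimum mean of 5 CPM (-0.05) and with only the rapamycin and DMSO libraries in the fit (-0.09). The 2 enzymes that build hypusine fell slightly with every compound, Dhps by 0.32 in each and Dohh by 0.32, 0.40 and 0.44.

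Of the 6 genes for eIF2 and the other carriers of initiator tRNA, 1 rose and 4 fell with rapamycin, 2 rose and 4 fell with Torin1, and 2 rose and 3 fell with RapaLink-1. The alpha subunit gene Eif2s1, whose protein is the target of the stress kinases, fell by 0.39, 0.56 and 0.54, each ± 0.02. Eif2s2, the beta subunit gene, had 233, 232 and 226 CPM with rapamycin, 203, 199.8 and 195 CPM with Torin1, 193, 197 and 199 CPM with RapaLink-1, and 333, 338 and 334 CPM with DMSO. Its treated libraries all lay below its DMSO libraries, with log2 fold changes of -0.54, -0.75 and -0.77, each ± 0.02.

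The gamma subunit is encoded on both sex chromosomes, and the 2 copies moved in opposite directions. Eif2s3x had 126, 129 and 128 CPM with rapamycin, 128, 129 and 133 CPM with Torin1, 128, 133 and 129 CPM with RapaLink-1, and 189.7, 188 and 189 CPM with DMSO. Eif2s3y had 55.6, 57.6 and 57.4 CPM with rapamycin, 68.9, 72.6 and 72.8 CPM with Torin1, 64.7, 66.6 and 66.6 CPM with RapaLink-1, and 51.8, 51.3 and 49.6 CPM with DMSO. The X copy fell by 0.56, 0.54 and 0.54 (each ± 0.02), nearly the same in all 3 comparisons, and the Y copy rose by 0.16, 0.49 and 0.38 (each ± 0.03). Their TPM ratio was 2.43 to 2.46 with rapamycin, 1.93 to 2.03 with Torin1, 2.11 to 2.18 with RapaLink-1 and 3.999 to 4.154 with DMSO. In the other 3 gene pairs examined on the sex chromosomes, chosen after the data were seen, the log2 fold change of the Y copy was also above that of the X copy with Torin1 and with RapaLink-1, a difference that was not tested. The Y-linked Kdm5d rose by 0.20, 0.43 and 0.53 and Ddx3y fell by 0.30, 0.22 and 0.19, while Uty rose with Torin1 (0.38) and RapaLink-1 (0.40) and was not called with rapamycin (0.02). Their X copies Kdm5c (-0.25, -0.40 and -0.39) and Ddx3x (-0.60, -1.16 and -1.17) fell in each comparison, and Kdm6a was called in none. Under upper-quartile scaling Kdm6a was called higher with Torin1 (0.09) and RapaLink-1 (0.14), and the RapaLink-1 value of Ddx3y (-0.05) was not called. With a minimum mean of 5 CPM Kdm6a was called higher with RapaLink-1 (0.09).

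Eif2a, which encodes an alternative carrier of initiator tRNA and is not the eIF2 alpha gene, fell with rapamycin and rose with the other compounds. Its levels were 71.1, 74.9 and 73.4 CPM with rapamycin, 121, 119 and 115 CPM with Torin1, 117, 118 and 115 CPM with RapaLink-1, and 89.4, 87.1 and 86.9 CPM with DMSO. The 3 treated groups stood apart from DMSO without overlap, rapamycin below it and the others above it (log2 -0.26 ± 0.03, 0.43 ± 0.03 and 0.41 ± 0.03). Eif2d, a further carrier, changed little, at -0.04 ± 0.04 and not called with rapamycin, -0.08 ± 0.04 and called lower with Torin1 (0.04 under upper-quartile scaling), and -0.07 ± 0.04 and not called with RapaLink-1. The Torin1 call was lost without the third Torin1 library (-0.08) or the first DMSO library (-0.05). A RapaLink-1 call appeared without the first RapaLink-1 library (-0.10) or without the second (-0.10) or the third (-0.09) DMSO library.

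All 5 genes of eIF2B fell with every compound. The falls were largest for Eif2b4, the delta subunit gene, with 29.1, 29.9 and 29.1 CPM with rapamycin, 28.98, 28.3 and 28.8 CPM with Torin1, 26.5, 25.9 and 27.0 CPM with RapaLink-1, and 46.05, 48.0 and 45.1 CPM with DMSO (log2 -0.66, -0.69 and -0.81, each ± 0.04). Eif2b4 shares 7.8% of its exonic bases with Snx17 on the other strand, which had more counts, so its value is uncertain. Eif2b1, the alpha subunit gene, fell by 0.46, 0.54 and 0.64. The smallest falls were 0.09 for Eif2b2 with rapamycin, a call lost without the third rapamycin (-0.07) or the third DMSO (-0.08) library, and for Eif2b3 0.11 with Torin1 and 0.17 with RapaLink-1. Under upper-quartile scaling the Eif2b2 value with rapamycin (-0.03) and the Eif2b3 values with Torin1 (0.01) and RapaLink-1 (-0.03) were not called. With a minimum mean of 5 CPM the calls of Eif2b2 with rapamycin (-0.03) and Eif2b3 with Torin1 (-0.02) were lost, and that of Eif2b2 was lost (-0.07) with only the rapamycin and DMSO libraries in the fit. Eif2b5, which encodes the catalytic subunit, fell by 0.30, 0.19 and 0.21.

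The 8 genes for scanning, start codon choice and subunit joining mostly fell. With rapamycin 7 fell and none rose, with Torin1 8 fell and none rose (5 and 1 under upper-quartile scaling), and with RapaLink-1 7 fell and none rose. Eif1ad, a gene related to eIF1A with a role in ribosome assembly, had the largest changes. It had 54.3, 52.8 and 53.4 CPM with rapamycin, 29.9, 30.3 and 31.1 CPM with Torin1, 30.3, 30.1 and 31.2 CPM with RapaLink-1, and 66.6, 67.3 and 66.8 CPM with DMSO, and its log2 fold changes were -0.32 ± 0.03, -1.13 ± 0.04 and -1.13 ± 0.04. Eif1ax, of the eIF1A genes, had 185, 186 and 182 CPM with rapamycin, 141, 137 and 140 CPM with Torin1, 143, 143 and 145 CPM with RapaLink-1, and 234, 227 and 232 CPM with DMSO. Eif1a had 150.1, 147 and 149 CPM with rapamycin, 155, 156 and 152 CPM with Torin1, 149, 149 and 151 CPM with RapaLink-1, and 173, 172 and 165 CPM with DMSO. Eif1ax fell by 0.33, 0.73 and 0.69 and Eif1a by 0.19, 0.14 and 0.19, the Torin1 value of Eif1a being -0.01 and not called under upper-quartile scaling. Their TPM ratio, Eif1a over Eif1ax, was 1.439 to 1.499 with rapamycin, 1.99 to 2.07 with Torin1, 1.90 to 1.91 with RapaLink-1 and 1.30 to 1.38 with DMSO. Eif5, the GTPase activator of eIF2, had 316, 324 and 317 CPM with rapamycin, 292, 299 and 288 CPM with Torin1, 312, 307 and 315 CPM with RapaLink-1, and 440.2, 439.5 and 432 CPM with DMSO. Eif5 fell by 0.46, 0.58 and 0.49, Eif5b by 0.30, 0.41 and 0.39, and Eif6, whose protein holds the large subunit apart, by 0.31, 0.43 and 0.40. Eif5b shares 16.8% of its exonic bases with Rev1 on the other strand. Eif1, the fidelity factor, had 400.5, 391 and 391 CPM with rapamycin, 424, 418 and 408 CPM with Torin1, 396, 396 and 396 CPM with RapaLink-1, and 439, 428 and 429 CPM with DMSO. Eif1 had small falls of 0.13, 0.05 and 0.13, which under upper-quartile scaling turned to a rise of 0.07 with Torin1 and to 0.01, not called, with RapaLink-1. Genes with a near copy of at least part of Eif1 (14, of which 13 were pseudogenes) held 19.6% of the counts of Eif1 and these genes together. These are counts of the whole genes, and the share in the copied stretches is not known. The value of Eif1 is therefore uncertain. Eif1b had 36.3, 34.3 and 34.8 CPM with rapamycin, 34.8, 32.3 and 34.1 CPM with Torin1, 36.1, 34.7 and 33.8 CPM with RapaLink-1, and 35.6, 35.6 and 37.3 CPM with DMSO. It was called only with Torin1 (-0.10 ± 0.04, and 0.02 under upper-quartile scaling), and that call was lost without the second Torin1 (-0.08) or the third DMSO (-0.08) library.

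The 14 genes of eIF3, the largest initiation factor, split. With rapamycin 2 rose and 11 fell, and with Torin1 and with RapaLink-1 6 rose and 8 fell. Under upper-quartile scaling 7 rose and 5 fell with Torin1, and 7 rose and 6 fell with RapaLink-1, so the balance of rises and falls in these 2 comparisons rests on the scaling. The 6 that rose with Torin1 and with RapaLink-1 were Eif3e, Eif3f, Eif3g, Eif3h, Eif3k and Eif3m. Of these, 5 belong to the octamer that forms the core of eIF3, and Eif3g to the module that binds messages and helps scanning.

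Eif3f rose most, with 149, 140.3 and 146 CPM with rapamycin, 192, 188 and 189.7 CPM with Torin1, 179, 181 and 178 CPM with RapaLink-1, and 122, 123 and 122 CPM with DMSO (log2 0.25, 0.64 and 0.55, each ± 0.02). Eif3h had 379, 369 and 378 CPM with rapamycin, 512, 503 and 499 CPM with Torin1, 485, 481 and 489.5 CPM with RapaLink-1, and 347, 337 and 343 CPM with DMSO (0.14, 0.56 and 0.51, each ± 0.02). For these 2 genes every treated library was above every DMSO library, and rapamycin lay between DMSO and the others. Eif3e went below DMSO with rapamycin (-0.12 ± 0.02) and above it with Torin1 (0.44 ± 0.02) and RapaLink-1 (0.31 ± 0.02), and so did Eif3m (-0.20, 0.30 and 0.21, each ± 0.02) and Eif3g (-0.27, 0.19 and 0.05, each ± 0.02). The RapaLink-1 call of Eif3g was lost without the first (0.04) or the third (0.05) RapaLink-1 library, without the first (0.04) or second (0.05) DMSO library, with DESeq2 size factors (0.05), in DESeq2's Wald test (0.05) and with no filter on low counts (0.04). Eif3k was not called with rapamycin (0.02 ± 0.03, and 0.08 and called higher under upper-quartile scaling) and rose with Torin1 (0.48 ± 0.03) and RapaLink-1 (0.39 ± 0.03).

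Among the eIF3 genes that fell, Eif3b stood apart. It encodes the scaffold of the scanning module and had 456, 443 and 453 CPM with rapamycin, 335, 336 and 335 CPM with Torin1, 329, 341 and 334 CPM with RapaLink-1, and 613, 611 and 620 CPM with DMSO. Its treated libraries lay below DMSO without overlap (log2 -0.45, -0.88 and -0.88, each ± 0.02). Eif3a, the largest octamer subunit, fell by 0.30, 0.13 and 0.10 (under upper-quartile scaling -0.0022 and not called with Torin1, and 0.03 higher with RapaLink-1), and Eif3c, its partner, fell by 0.42, 0.31 and 0.34. Eif3i, of the scanning module, fell by 0.29, 0.06 and 0.14 (0.07 higher with Torin1 under upper-quartile scaling, and not called there without the third DMSO library, -0.04), and Eif3l by 0.26, 0.15 and 0.21. Under upper-quartile scaling the RapaLink-1 value of Eif3i (-0.0038) and the Torin1 value of Eif3l (-0.02) were not called, and with a minimum mean of 5 CPM the RapaLink-1 value of Eif3a (-0.02) was not. Eif3d, whose protein can bind caps, fell by 0.46, 0.29 and 0.37, but the antisense gene Gm17638 covers 32.7% of its exons. Eif3j1 and Eif3j2, which are 99.4% identical over 2379 bases and may share reads, fell by 0.50, 0.38 and 0.39 and by 0.52, 0.35 and 0.38. Eif3j1 also shares 19.0% of its exonic bases with Spg11 on the other strand, which had more counts, so its value is uncertain. In sum the eIF3 genes took 0.324% to 0.327% of counts with rapamycin, 0.364% to 0.370% with Torin1, 0.3604% to 0.365% with RapaLink-1 and 0.364% to 0.368% with DMSO, so the Torin1 and RapaLink-1 libraries overlapped DMSO and the rapamycin libraries lay below it. As a share of TPM the eIF3 genes took 0.4321% to 0.4362% with rapamycin, 0.5021% to 0.5088% with Torin1, 0.497% to 0.502% with RapaLink-1 and 0.4696% to 0.4738% with DMSO. On that measure the Torin1 and RapaLink-1 libraries lay above DMSO without overlap, so their place relative to DMSO depends on the measure.

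The last 4 members carry an eEF1 name without being elongation factors. Eef1e1, whose protein (AIMP3) sits in the aminoacyl-tRNA synthetase complex, fell by 0.54, 0.47 and 0.39, each ± 0.04. It had 30.3, 27.8 and 29.1 CPM with rapamycin, 31.7, 30.8 and 29.2 CPM with Torin1, 32.1, 33.3 and 31.6 CPM with RapaLink-1, and 41.8, 41.7 and 43.6 CPM with DMSO, and no treated library reached DMSO. The eEF1A lysine methyltransferase gene Eef1akmt1 was at -0.06 ± 0.04 and not called with rapamycin and fell with Torin1 (0.32 ± 0.05) and RapaLink-1 (0.33 ± 0.05). Eef1akmt2 fell by 0.27, 0.20 and 0.25, each ± 0.08. Under upper-quartile scaling its Torin1 (-0.08) and RapaLink-1 (-0.11) values were not called, nor was the Torin1 value with a minimum mean of 5 CPM (-0.11). Eef1akmt3, at 0.756 to 1.56 CPM, was called in none of the 3 comparisons.

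Between Torin1 and rapamycin, 29 members were higher with Torin1 and 21 lower, and 34.2% of all genes tested were called higher and 33.2% lower. All 5 elongation genes were higher with Torin1, by 0.16 (Eef1d) to 0.85 (Eef2), and so were 13 of 14 eIF3 genes, by 0.11 (Eif3c) to 0.57 (Eif3e), with Eif3b the exception at -0.43 ± 0.02. Of 12 cap-complex genes 3 were higher with Torin1 (Eif4b, Eif4g3 and Eif4a2) and 9 lower. Eif5a and Eif1ad were lower with Torin1 by the same 0.81 on the log2 scale. The gamma subunit gene Eif2s3x was not called (0.03 ± 0.02, 95% interval -0.02 to 0.07), though under upper-quartile scaling it was called higher with Torin1 (0.09).

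RapaLink-1, which contains the rapamycin part, gave 28 members higher and 20 lower than rapamycin, against 32% and 33% of all genes tested. All 5 elongation genes were higher with RapaLink-1, by 0.16 (Eef1d) to 0.85 (Eef2). So were 13 of 14 eIF3 genes, by 0.06 (Eif3l) to 0.43 (Eif3e), with Eif3b at -0.43 ± 0.02. Eif3l was not called without the second (0.04) or the third (0.04) RapaLink-1 library, Eif3j1 not without the third (0.07), and Eif3j2 not without the second (0.12) or the third (0.08). Of the cap-complex genes 3 were higher and 8 lower, and none of the 8 scanning genes was higher and 4 were lower (3 higher and 2 lower under upper-quartile scaling). Eif1ax fell below rapamycin (-0.36 ± 0.02), while Eif1a was not called (0.01 ± 0.02, 95% interval -0.03 to 0.05), nor was Eif2s3x (0.02 ± 0.02, interval -0.02 to 0.07). Under upper-quartile scaling Eif1a (0.08) and Eif2s3x (0.10) were called higher with RapaLink-1.

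RapaLink-1 and Torin1 differed least. With RapaLink-1 6 members were higher and 18 lower than with Torin1, where 16.7% of all genes tested were called higher and 16.4% lower. Without the first Torin1 library, or without the second RapaLink-1 library, 11 were lower. The widest gap was in the rare Eif4e3 (0.68 ± 0.14, edgeR adjusted p = 3.72e-05). Of the eIF3 genes 9 of 14 were lower with RapaLink-1, by 0.06 (Eif3h) to 0.14 (Eif3g), of which Eif3h, Eif3k and Eif3l were no longer called without the first Torin1 library (-0.04, -0.08 and -0.03). The Eif3h call was also lost without the second RapaLink-1 library (-0.04), that of Eif3l without the first (-0.05) or second (-0.05) RapaLink-1 library, and that of Eif3k without the first (-0.07) or the third (-0.07) RapaLink-1 or the second Torin1 (-0.07) library. Eef1g was lower by 0.10 ± 0.01. The cap-complex genes Eif4g1 (0.09 ± 0.01) and Eif4e (0.08 ± 0.03) were slightly higher with RapaLink-1, and Eif4e was not called without the third RapaLink-1 library (0.07). No difference was called for the 4 members with the largest responses, and the 95% intervals of the log2 difference were narrow. They ran from -0.02 to 0.03 for Eef2, from -0.06 to 0.04 for Eif4g3, from -0.02 to 0.04 for Eif5a and from -0.08 to 0.08 for Eif1ad.

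Of the 8 kinase and binding protein genes left out by the rule, none rose and 5 fell with rapamycin (1 and 4 under upper-quartile scaling), 1 rose and 6 fell with Torin1 (2 and 5), and 1 rose and 6 fell with RapaLink-1 (1 and 4). Eef2k, the kinase that inhibits eEF2, was at 31.1 ± 0.37 CPM with rapamycin, 51.6 ± 0.12 with Torin1, 44.2 ± 1.4 with RapaLink-1 and 34.3 ± 0.81 with DMSO (SD, n = 3 each), lower with rapamycin (log2 -0.14 ± 0.04, and -0.08 and not called under upper-quartile scaling) and higher with Torin1 (0.59 ± 0.04) and RapaLink-1 (0.37 ± 0.04). The eIF4E-binding protein genes Eif4ebp1 (-0.14, -0.36 and -0.38) and Eif4ebp2 (-0.37, -0.87 and -0.72) fell in each comparison.

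Of 21 other translation genes, 3 rose and 15 fell with rapamycin, 7 rose and 12 fell with Torin1, and 6 rose and 13 fell with RapaLink-1. Pabpc1, the main poly(A)-binding protein and itself a TOP message, rose by 0.10, 0.61 and 0.65, each ± 0.01. Pdcd4, an inhibitor of eIF4A, had 51.8 ± 1.8 CPM with rapamycin, 56.7 ± 2.3 with Torin1, 52.2 ± 0.96 with RapaLink-1 and 30.8 ± 0.76 with DMSO (SD, n = 3 each) and rose by 0.75, 0.88 and 0.76, each ± 0.04. The release factor gene Gspt1 fell by 0.47, 1.08 and 1.00 and the ribosome recycling factor Abce1 by 0.51, 0.89 and 0.89. The helicase gene Ddx3x and Dap (-0.35, -1.23 and -1.17), whose product acts in ribosome dormancy in zebrafish and Xenopus eggs, fell too, and Larp1 fell by 0.43, 0.40 and 0.39. Another 7 genes serve to make diphthamide, the modified histidine of eEF2. Of these 1 rose and 5 fell with rapamycin, 2 rose and 3 fell with Torin1 (1 and 3 with DESeq2 size factors), and 1 rose and 4 fell with RapaLink-1 (3 and 3 under upper-quartile scaling). The 7 mitochondrial initiation and elongation factors gave 1 rise and 4 falls with rapamycin (2 and 4 under upper-quartile scaling), 2 and 4 with Torin1 (3 and 3), and 2 and 4 with RapaLink-1, with the mitochondrial EF-Tu gene Tufm at -0.63, -0.60 and -0.72.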

How the data were processed

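RNA of 12 libraries of mouse embryonic fibroblasts was isolated with the RNeasy kit and sequenced after the NEBNext Ultra RNA kit, per the labels' protocols. The authors deposited whole-number read counts per gene, 1 table per library, in columns laid out as featureCounts writes them. The submitters' processing notes list featureCounts, STAR 2.5.2b, Subread 1.5.2 and Trimmomatic 0.36, with GRCm38 as the build, and DESeq2. The strand setting and the treatment of reads with several matches are not stated there, and reads of overlapping genes or near copies may be mixed.

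Symbols came from GENCODE M21, which held 49056 of the 49315 gene IDs. Of 59 genes of M21 that pass the rule, 58 were in the tables. Counts were tested with edgeR 4.0.16 (R 4.3.3), with TMM scaling, filterByExpr, a robust quasi-likelihood fit of all 12 libraries by group and Benjamini-Hochberg adjustment over 15917 genes. Standard errors are the log2 fold change over the root of F. CPM are scaled by TMM, and TPM are counts over exonic length. Replicate pairs differed by more than sampling noise (chi-square over degrees of freedom 1.34 to 2.06). The test was checked on simulated counts with few changed genes. That check does not cover the scaling of data in which many genes change. Near copies were found by BLAST of GENCODE M21 transcripts. Alternatives were upper-quartile or DESeq2 scaling, DESeq2 1.42.0's Wald test, no filter, a minimum mean of 5 CPM, a replicate block, only the libraries compared, and each library left out. Promoter letters are from RefSeq (GRCm38.p6).

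Every member of the rule may be named. Values in each library are given at least for the member of each complex with the smallest p in each comparison with DMSO and for the paralog pairs, as counts for Eef1a2. The members and lists were chosen with earlier results of these data known.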

Additional observations from a re-analysis of the deposited data

How the results depend on the processing

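Of the 56 members tested against DMSO, 51 with rapamycin, 46 with Torin1 and 48 with RapaLink-1 kept the same call (higher, lower or none) in all 13 alternatives in which they were tested. Upper-quartile scaling moved the median of all genes by 0.0627, 0.126 and 0.137 in that order, and a small change is best read relative to that shift. It moved the members' median to -0.23 with rapamycin, -0.17 with Torin1 and -0.15 with RapaLink-1. With a minimum mean of 5 CPM the medians were -0.24, -0.21 and -0.25, with no filter -0.31, -0.32 and -0.31. With only the libraries compared they were -0.27 for rapamycin and -0.28 for RapaLink-1, and with DESeq2 size factors or its Wald test -0.31 for Torin1. Leaving out 1 library gave medians of -0.2996 to -0.2910 for rapamycin, medians of -0.3096 to -0.2876 for Torin1 and medians of -0.2964 to -0.2839 for RapaLink-1. Members lower with RapaLink-1 than with Torin1 numbered 11 to 16, against 18 with all libraries, with 1 library left out.

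Among the values whose sign turned under upper-quartile scaling were Eef1g with rapamycin (0.0122), Eif2d (0.0435), Eif2b3 (0.0131), Eif3i (0.0715), Eif1 (0.0741) and Eif1b (0.0249) with Torin1, Eif3a (0.0337) and Eif1 (0.0118) with RapaLink-1, and Eif5 between RapaLink-1 and rapamycin (0.0414). Those turned by a minimum of 5 CPM included Eef1g with rapamycin (0.0075) and Eif2d (0.0084), Eif3i (0.0364) and Eif1 (0.039) with Torin1. Other small values turned under these settings as well and are not listed. The cause was not tested.

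As a share of TPM the elongation genes took 2.12%, 3.16%, 3.28% and 1.81% and the initiation genes 0.977%, 1.05%, 1.06% and 1.11% with rapamycin, Torin1, RapaLink-1 and DMSO. Same-numbered libraries correlated at -0.039 to 0.059 after removal of group means. Sampling noise lowers such values and differently numbered libraries were not compared. These values therefore cannot show whether the replicate numbers pair the libraries, which the labels do not say. With the replicate block 8 members rose and 42 fell with rapamycin, 15 and 39 with Torin1, and 16 and 36 with RapaLink-1. Over all genes the block gave 4382 and 5134, 6329 and 6085, and 6154 and 6030 calls. Low counts limit Eif4e3, Eef1akmt3 and Eef1a2.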
